A study of Mus musculus with 20 samples.

Results

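Liver gene expression was compared between male C57BL/6J mice fed a high fat diet with nori extract and mice fed the same diet with porphyran. Nori is an edible red alga, and porphyran is the sulfated galactan of its cell wall. The comparison rests on 2 of the 20 arrays of the study, chosen by their titles: the liver array of the extract diet (HFD+Ex) and that of the porphyran diet (HFD+PP). Mice were 5 weeks old at the start and received their diets for 13 weeks. Both groups ate a diet with 60% of its energy from fat, with 2% by weight of nori extract in one and 2% by weight of porphyran in the other. The 2 further liver arrays, shown beside them, came from mice on a control diet with 10% of its energy from fat (CD) and from mice on the high fat diet alone (HFD). Each array held RNA pooled from 7 mice, so there was 1 array per diet. No spread between mice could be measured, no difference was tested, and the number of arrays limits the precision of every value. In pooled bulk tissue, fewer cells of a type and less RNA per cell cannot be told apart.

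The liver makes cholesterol and fatty acids for export and storage. The transcription factor SREBP2 drives the enzymes of cholesterol synthesis, and SREBP1c drives those of fatty acid synthesis. The liver also converts cholesterol to bile acids and releases acute phase proteins such as the serum amyloid A proteins, which circulate on lipoproteins.

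The livers of the 2 supplement groups were close to each other, with small differences shared by genes of lipid synthesis and of blood. All 23 measured genes of cholesterol synthesis had higher values with extract than with porphyran, by 0.05 to 0.92 on the log2 scale, with a median of 0.46 (1.38-fold). Of 31 fatty acid synthesis genes, 23 had higher values with extract, with a median of 0.34 (1.27-fold). Over all measured genes, 7126 of 15319 (46.5%) had a difference above 0. Of 13 erythroid genes 11 had lower values with extract, with a median of -0.39. The acute phase genes Saa1 and Saa2 were 2.44-fold and 2.61-fold higher with extract, whereas Saa3, their relative, was 2.17-fold higher with porphyran. Of 20 smooth muscle genes, Cnn1, Actg2, Myh11 and Acta2 were 2.22-fold to 4.25-fold higher with porphyran, but the median of the list was -0.03, and with normexp background correction Cnn1 alone of the 4 stayed past 2-fold. Genes of bile acid synthesis, ceramide synthesis, matrix and macrophages had medians near no difference.

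Levels are log2 signals relative to the array's 75th percentile, so a level of 0 is a spot as bright as that percentile, and a difference is the extract level minus the porphyran level. Levels are compared between arrays for 1 gene and never between genes. A gene was measured when its spot was well above background, by the scanner software's flag, on at least 1 of both arrays, which held for 15319 genes. It was well above background on both in 14147, and for the other 1172 the dim array gives only a bound. The median difference over all measured genes was -0.00. Among 230 and 234 bright probes printed 10 times on the extract and the porphyran array, the spots of 1 array gave a technical standard deviation of 0.0838 for a log2 difference, which covers the spots of an array and not the mice.

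A total of 211 genes (1.38% of those measured) were at least 2-fold higher with extract, 137 of them as bounds, and 60 (0.392%) were at least 2-fold higher with porphyran, 41 of them as bounds, or 1.77% in either direction. Most of these genes were dim. Of 11239 genes with a mean level of at least -2 over the 4 liver arrays, 15 (0.133%) were at least 2-fold higher with extract and 7 (0.0623%) with porphyran. Of the 4080 dimmer genes, 196 and 53 were. The bright genes are therefore described first. The brightness limit was chosen after the values were seen.

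**Figure D1:**
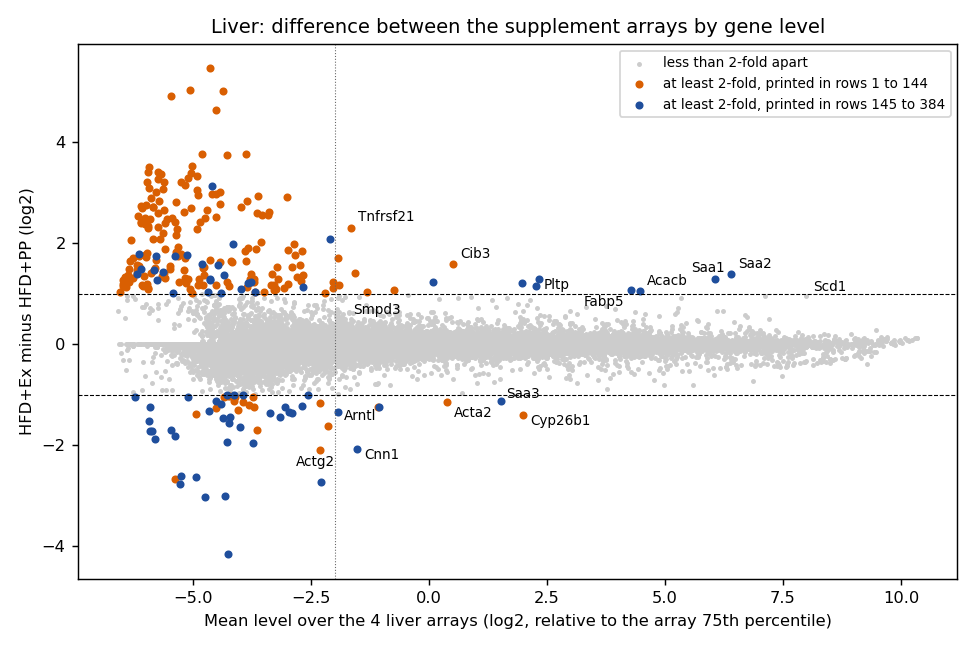
Difference between the extract and porphyran liver arrays (log2, vertical axis) against the mean level over the 4 liver arrays (log2, horizontal axis), 1 point per measured gene. Dashed lines mark 2-fold, the dotted line a mean level of -2, and orange points are genes at least 2-fold apart whose probes are printed in rows 1 to 144 of 384. Most points beyond the dashed lines lie left of the dotted line, and above it they are mostly orange.

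The promoters of sterol and lipid genes often hold the letters CCAAT, bound by NF-Y, a factor that works together with SREBP proteins. Promoter sequences were matched by symbol to RefSeq (build GRCm38.p6), where 18 of the 23 measured cholesterol synthesis genes and 24 of the 31 fatty acid synthesis genes had an entry. CCAAT, on either strand, stood within 250 bases before the start in 16 of the 18 (88.9%) and in 17 of the 24 (70.8%), against 10133 of 27025 genes in the table (37.5%) and 33.8% of all its promoters. The promoter table also holds genes that were not measured in liver, and the share among measured genes was not counted. The count took all listed genes with an entry, whatever their difference between the supplements, and a link to that difference was not tested. A match is a description of the letters and not a site of binding. The last 120 bases before the start are shown for 6 of these genes, chosen after their values and motifs were seen. All 6 hold the motif. They are not those with the largest differences, since Scd1 (0.96) and Sqle (0.76) are left out and Idi1 (0.56) is shown. Capitals mark CCAAT or its reverse complement ATTGG.
Mvd (chr8:122443423-122443542, minus strand): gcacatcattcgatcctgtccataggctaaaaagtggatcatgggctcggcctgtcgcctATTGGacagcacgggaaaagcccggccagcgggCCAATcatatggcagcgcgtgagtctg
Lss (chr10:76531485-76531604, plus strand): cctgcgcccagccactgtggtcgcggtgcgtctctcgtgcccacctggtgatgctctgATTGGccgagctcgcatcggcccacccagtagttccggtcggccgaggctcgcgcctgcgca
Hmgcs1 (chr13:119690231-119690350, plus strand): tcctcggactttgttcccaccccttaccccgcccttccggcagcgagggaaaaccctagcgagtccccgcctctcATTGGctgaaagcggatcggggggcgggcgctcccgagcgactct
Idi1 (chr13:8885486-8885605, plus strand): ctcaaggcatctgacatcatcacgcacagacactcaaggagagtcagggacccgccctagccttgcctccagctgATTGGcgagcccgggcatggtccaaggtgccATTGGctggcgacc
Fasn (chr11:120824548-120824667, minus strand): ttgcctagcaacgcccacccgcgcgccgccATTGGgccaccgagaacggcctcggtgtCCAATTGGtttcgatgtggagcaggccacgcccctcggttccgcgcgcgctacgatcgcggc
Acacb (chr5:114165398-114165517, plus strand): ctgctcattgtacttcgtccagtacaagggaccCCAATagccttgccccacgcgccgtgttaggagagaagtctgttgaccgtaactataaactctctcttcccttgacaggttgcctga

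Cholesterol synthesis genes had higher values with extract both before and after squalene in the pathway. Mvd, which makes isopentenyl pyrophosphate from mevalonate pyrophosphate, had levels of 0.65 on CD, 0.23 on HFD, 0.31 with porphyran and 1.23 with extract. The extract array was the highest of the 4, and the difference of 0.92 was the largest of the list. Hmgcs1, which makes HMG-CoA early in the pathway, had levels of 5.63, 6.06, 6.03 and 6.68 in the same order. Idi1, the isomerase of isopentenyl pyrophosphate, had levels of 4.60, 4.41, 4.96 and 5.52. Downstream, the squalene epoxidase Sqle had levels of 3.82, 3.11, 3.66 and 4.42, and the lanosterol synthase Lss had levels of 1.33, 1.11, 1.22 and 1.97. Each of these 4 genes too was highest with extract, and their differences between the supplements were 0.56 to 0.76. Ggps1, Lbr and Acat2, with differences of 0.05 to 0.08, lay within the technical standard deviation.

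No cholesterol synthesis gene reached 2-fold. At a smaller limit of 0.5, chosen after the values were seen, 9 of the 23 were higher with extract and 0 with porphyran, against 103 (0.916%) and 77 (0.685%) of the 11239 brighter genes. Set against the HFD array, which both supplements share, the median of the list was 0.24 with porphyran and 0.63 with extract. Set against the CD array it was 0.05 and 0.58.

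Of 16 other targets of SREBP2, 12 had higher values with extract, with differences from -0.38 to 0.92 and a median of 0.23. The median was 0.44 over probes in rows 1 to 192 of the 384 printed rows and -0.03 over rows 193 to 384. Insig1, which holds SREBP in the endoplasmic reticulum when sterols are plentiful, had levels of 2.24 on CD, 1.65 on HFD, 1.85 with porphyran and 2.28 with extract. The difference between the supplements was 0.44, and the extract and control diet levels were within the technical standard deviation of each other. Stard4, a sterol carrier, differed by 0.45. Srebf2, the gene of SREBP2, differed by -0.03, which is within the technical standard deviation.

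**Figure D2:**
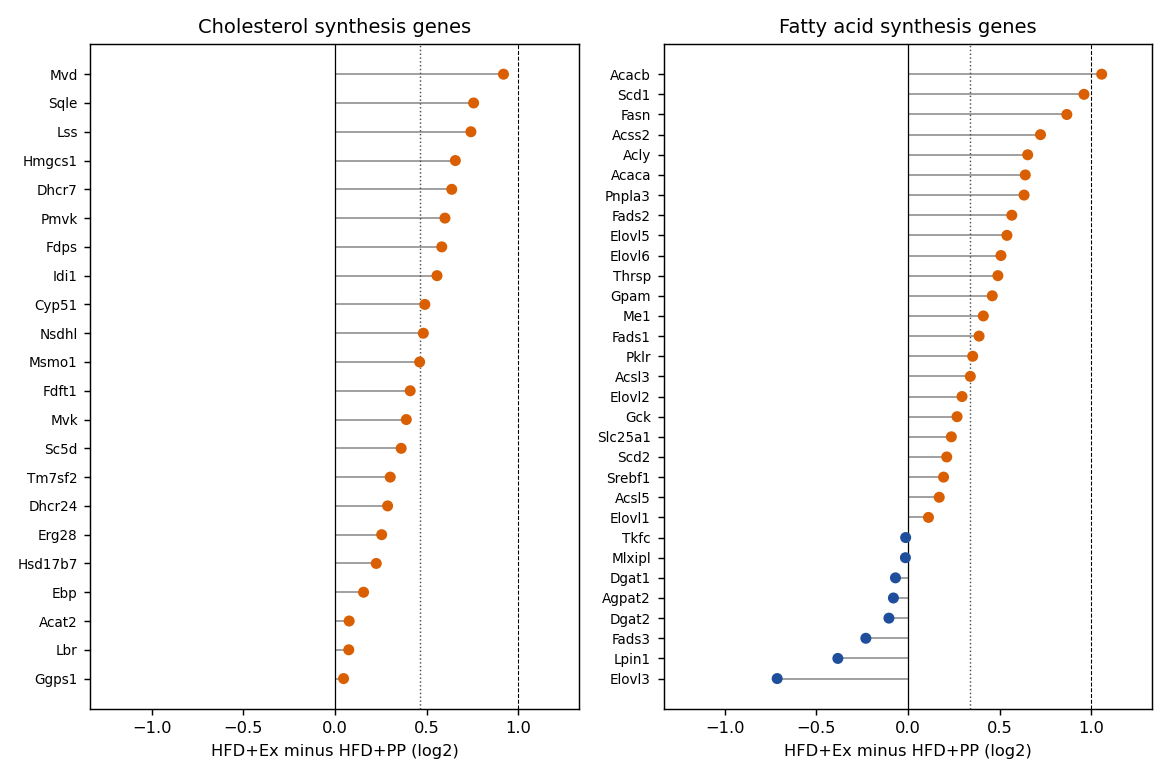
Difference between the extract and porphyran liver arrays (log2, horizontal axis) for 22 of the 23 measured genes of cholesterol synthesis (left) and all those of fatty acid synthesis (right, 31 genes), from 1 array per diet. The dotted line is the median of the list (0.46 and 0.34), the dashed line 2-fold, and all points on the left and 23 of those on the right lie above 0.

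Among fatty acid synthesis genes, Acacb had the largest difference. Acacb, the acetyl-CoA carboxylase at mitochondria, had levels of 5.28 on CD, 4.25 on HFD, 3.65 with porphyran and 4.71 with extract. It was the only member at least 2-fold higher with extract (2.08-fold), and another probe of the gene gave 1.06 as well. Acaca, the cytosolic carboxylase, had levels of 6.21, 5.04, 4.57 and 5.21. Fasn, the fatty acid synthase, had levels of 3.64, 1.86, 1.08 and 1.95. In all 3 genes the porphyran array was the lowest of the 4 and the control diet the highest, and the extract array lay above the HFD array. For Fasn that last step was 0.09, close to the technical standard deviation of 0.0838.

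Scd1, the desaturase that makes oleate, had levels of 9.13 on CD, 8.07 on HFD, 6.88 with porphyran and 7.84 with extract. It was lowest with porphyran, and the difference of 0.96 fell short of 2-fold. Acly, which makes cytosolic acetyl-CoA, differed by 0.65 and Acss2, which makes it from acetate, by 0.72. Elovl6 and Elovl5, elongases of long-chain fatty acids, differed by 0.51 and 0.54. Elovl3, an elongase of very long chains, went the other way with -0.71. Srebf1, the gene of SREBP1, differed by 0.19. Of 30 members with a mean level of at least -2, 9 were at least 0.5 higher with extract and 1, Elovl3, with porphyran. Set against the shared HFD array, the list's median was -0.23 with porphyran and 0.09 with extract. The median between the supplements was 0.17 over probes in rows 1 to 192 and 0.35 over rows 193 to 384. Scd3, a further desaturase, was 2.46-fold higher with extract by its brighter probe, with levels of 4.08, 2.35, 0.78 and 2.08, but its other probe gave 0.12, so its probes disagree.

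Fabp5, Pltp and Pdzk1ip1 were also among the bright genes at least 2-fold higher with extract. Fabp5, a fatty acid binding protein, had levels of 7.20 on CD, 3.36 on HFD, 2.75 with porphyran and 3.81 with extract. Pltp, which moves phospholipids between lipoproteins, had levels of 2.92, 1.99, 1.51 and 2.66. Pdzk1ip1, which binds the scaffold protein PDZK1, had levels of 3.14, 1.43, 1.04 and 2.24, and its other probe gave 1.15. In these 3 genes the porphyran array was again the lowest and the control diet the highest. The lipid droplet genes Cidea, Cidec and Plin2 differed less, by 0.31, 0.39 and 0.24, and none of these reached 2-fold. Of 32 genes of lipid droplets and uptake, 17 had a difference above 0, against 46.5% of all measured genes, and the median was 0.01. Fabp5 was the 1 member of that list past 2-fold. Cd36, the fatty acid uptake receptor, differed by 0.08.

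The serum amyloid A genes are printed next because their members went opposite ways. Saa1 and Saa2 lie beside each other on chromosome 7 and are near-identical copies, so how signal divides between their probes is uncertain. Over 250 bases before the start, Saa1 and Saa2 were 94.8% identical, and each was 52.2% and 52.4% identical to Saa3. The last 120 bases are shown from RefSeq (GRCm38.p6), with capitals at bases that differ from, or have no partner in, the other gene.
Saa1 (chr7:46742981-46743100, minus strand): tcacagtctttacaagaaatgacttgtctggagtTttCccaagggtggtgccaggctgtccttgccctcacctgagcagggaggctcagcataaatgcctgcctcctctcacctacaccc
Saa2 (chr7:46751713-46751832, plus strand): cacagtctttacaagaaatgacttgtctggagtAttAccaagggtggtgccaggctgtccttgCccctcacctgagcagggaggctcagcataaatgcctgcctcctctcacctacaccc

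Saa1 had levels of 4.07 on CD, 6.75 on HFD, 6.05 with porphyran and 7.34 with extract. Saa2 had levels of 4.16, 7.21, 6.40 and 7.79. Both genes were lowest on the control diet and highest with extract, with porphyran below the HFD array. Saa3, which is made mainly by macrophages and fat cells, had levels of 0.76, 1.92, 2.26 and 1.14, highest with porphyran. Across the 29 acute phase genes the median was 0.10, with 2 genes at least 2-fold higher with extract and 1 with porphyran. Over all measured genes, 1.38% and 0.392% were. The 2 higher with extract are the near-identical copies Saa1 and Saa2. Socs3, a feedback inhibitor of cytokine signalling, differed by 0.79, Hamp2, a hepcidin gene, by 0.91, and Lcn2, which binds bacterial siderophores, by 0.45. Crp, the C-reactive protein, differed by -0.13. Macrophage markers did not move with these genes as a list: 0 of 25 reached 2-fold and the median was 0.00, although Marco, a scavenger receptor, differed by -0.77. Il1b and Ccl2, an interleukin and a chemokine, differed by 0.16 and -0.40.

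**Figure D3:**
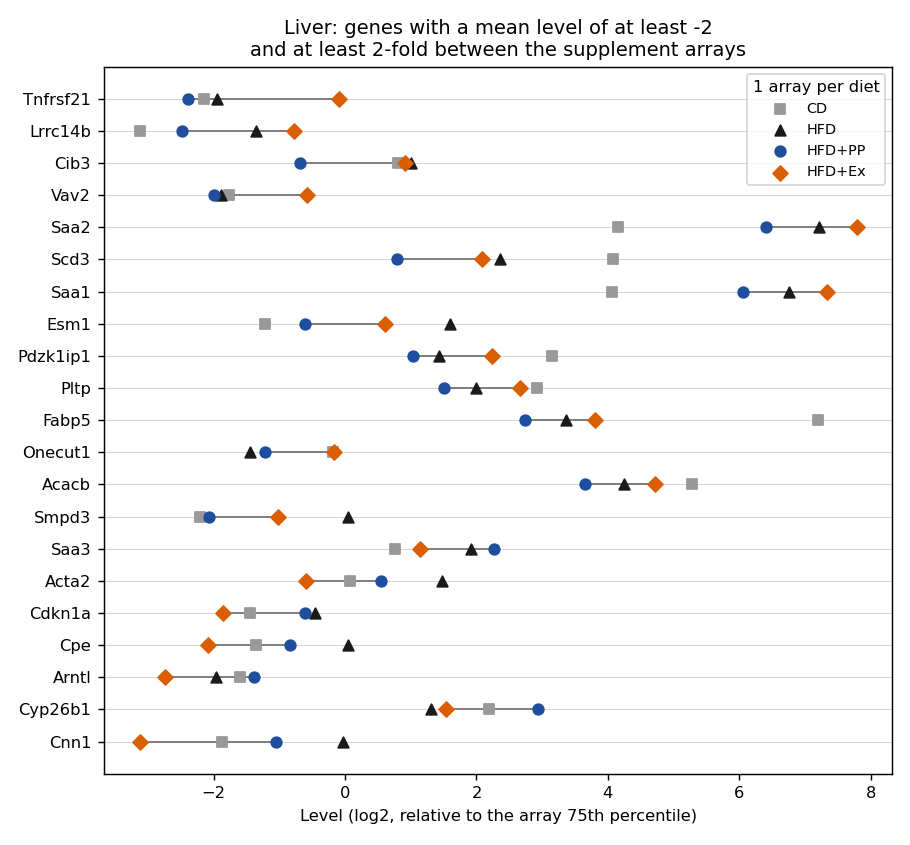
Level on each of the 4 liver arrays (log2 relative to the array's 75th percentile, horizontal axis) for the 21 named genes with a mean level of at least -2 and at least 2-fold between the supplement arrays, 1 array per diet. Grey lines join the porphyran and extract arrays; 14 of the genes are higher with extract and 7 with porphyran.

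Smooth muscle genes were lower with extract in a small group of contractile members. Acta2, smooth muscle actin, had levels of 0.07 on CD, 1.47 on HFD, 0.55 with porphyran and -0.60 with extract. Actg2, the actin of visceral muscle, had levels of -2.70, -0.82, -1.83 and -3.92. Cnn1, calponin, had levels of -1.88, -0.04, -1.05 and -3.13, and Myh11, the smooth muscle myosin, had levels of -3.44, -2.26, -2.75 and -4.20. All 4 were lowest with extract and highest on HFD. Pdlim3, which anchors actin filaments, was lower with extract by the same measure, with a difference of -1.23. Of the 20 measured smooth muscle genes, 4 were at least 2-fold higher with porphyran, against 0.392% of all measured genes. In that list 8 had a difference above 0, against 46.5% of all measured genes. The median was -0.03. Tagln differed by -0.19, Tpm2 by -0.17 and Mylk by 0.00, and the summed level of the list was 6.13 with porphyran and 6.14 with extract. Of 30 matrix genes, 0 reached 2-fold, and Col1a1 differed by 0.05. With normexp background correction Cnn1 was -1.12, while Acta2, Actg2, Myh11 and Pdlim3 fell short of 2-fold, at -0.96, -0.74, -0.35 and -0.36.

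Other bright genes lower with extract had separate roles. Cyp26b1, which breaks down retinoic acid, had levels of 2.19 on CD, 1.30 on HFD, 2.93 with porphyran and 1.53 with extract, highest with porphyran. Arntl, the activator BMAL1 of the circadian clock, had levels of -1.61, -1.96, -1.39 and -2.74, lowest with extract. The other 20 measured clock genes did not reach 2-fold, and Dbp and Nr1d1, which oscillate against Arntl, differed by 0.44 and 0.41. The hour of tissue collection is not given in the sources used here. Cdkn1a, the cell cycle inhibitor p21, had levels of -1.44, -0.46, -0.61 and -1.86. Cpe, a carboxypeptidase of peptide hormones, had levels of -1.36, 0.05, -0.84 and -2.09, with -1.25 by its other probe too. Both were lowest with extract. With normexp background correction, Arntl was -0.73, Cdkn1a -0.81 and Cpe -0.75, all short of 2-fold. Cdkn1a was also short of it, at -0.83, by the median over its probes.

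The remaining bright genes higher with extract did not share a list. Tnfrsf21, death receptor 6, had levels of -2.15 on CD, -1.95 on HFD, -2.39 with porphyran and -0.09 with extract. Cib3, a calcium-binding protein, had levels of 0.80 on CD, -0.68 with porphyran and 0.91 with extract, and the HFD array lay just above the extract array, so that the porphyran array was the low one. Esm1, secreted by endothelial cells, had levels of -1.23, 1.60, -0.62 and 0.61. Smpd3, a neutral sphingomyelinase that releases ceramide, had levels of -2.22, 0.04, -2.07 and -1.03, which was 2.06-fold higher with extract and below HFD on both. Onecut1, a liver transcription factor, had levels of -0.18, -1.45, -1.23 and -0.16. Lrrc14b and Vav2, a guanine exchange factor, differed by 1.71 and 1.41. The probes of Tnfrsf21, Cib3, Smpd3, Onecut1, Lrrc14b and Vav2 are printed in rows 9 to 118, where the extract array held extra bright spots, described with the dim genes. With normexp, Tnfrsf21 was 1.32, and Lrrc14b, Vav2, Smpd3, Onecut1 and Esm1 fell short of 2-fold, at 0.87, 0.95, 0.76, 0.81 and 0.92.

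The study's title names bile acids and ceramide, and genes of both pathways lay close together on the supplement arrays. Of 18 bile acid synthesis genes 0 reached 2-fold, and the median was -0.06. Only 3 of the 18 had a difference above 0, against 46.5% of all measured genes. Cyp7a1, the rate-limiting enzyme, had levels of 3.06 on CD, 3.47 on HFD, 4.20 with porphyran and 4.05 with extract, so both supplements lay above both other diets. Cyp8b1, which sets the share of cholic acid, differed by -0.05, Cyp27a1 of the alternative pathway by 0.05, and Cyp7b1, the next enzyme of that pathway, by -0.39. The bile acid receptor gene Nr1h4 and its target Nr0b2 differed by -0.05 and -0.07. The transporters Abcb11 and Slc10a1 differed by 0.14 and 0.06. The Slc10a1 probe was bright in every tissue, with levels on the porphyran arrays of 9.62 in liver, 9.57 in brown fat and 8.74 in colon. Whether it reads the liver transporter was not tested. Of 30 ceramide and sphingolipid genes, Smpd3 alone reached 2-fold and the median was -0.02. Sptlc2, of the first step of ceramide synthesis, differed by 0.01, Degs1 by -0.00 and Cers6 by -0.11.

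Fasting and fat oxidation genes differed by less than 2-fold. Of 38 fatty acid oxidation genes 0 reached 2-fold, with a median of -0.08. Cyp4a14 differed by -0.31, Pdk4, which blocks pyruvate use, by -0.61, and Acot1, an acyl-CoA thioesterase, by -0.81. Cpt1a, the gate of mitochondrial oxidation, differed by 0.03. Among 28 glucose genes the median was -0.01, and 4 were at least 0.5 lower with extract, against 77 of 11239 bright genes (0.685%): G6pc, glucose-6-phosphatase, by -0.62, Igfbp1 by -0.81, Ppp1r3c by -0.66 and Pfkfb3 by -0.57. Pck1 differed by -0.26. Fgf21, a fasting hormone, differed by 0.30.

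The label liver fitted its markers, since all 16 hepatocyte markers were well above background on both arrays and differed by -0.37 to 0.34. Most erythroid and B cell genes had lower values on the extract array than on the porphyran array. Of 13 measured erythroid genes 11 had lower values with extract, none by 2-fold. The other 2, Tmcc2 (2.92) and Epb42 (at least 3.49-fold), were higher with extract and have probes in row 8, among the rows with extra bright spots. Over probes in rows 1 to 192 the list's median was -0.11, and over rows 193 to 384 it was -0.51. The haemoglobin genes Hba-a1, Hba-a2, Hbb-b1, Hbb-b2 and Hbb-bt, some of which are near-identical copies, differed by -0.39 to -0.73, and the list's summed level was 10.10 with porphyran and 9.62 with extract. Of 10 B cell and plasma cell genes 9 had lower values with extract, with a median of -0.38. That median was -0.08 with normexp and -0.09 without genes of other tissues. Ms4a1 (CD20) stood at the 2-fold limit, with levels of -2.19 with porphyran and -3.19 with extract, and fell below it with normexp (-0.58) and with the authors' values. Whether blood content has a part in the differences of other genes was not tested. Of 42 lists, 28 had no member past 2-fold.

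The dim genes at least 2-fold apart followed the place of their probes on the array. Probes are printed in 384 rows. Of the 211 genes higher with extract, 178 (84.4%) had probes in rows 1 to 144, where 38.4% of all measured genes lie, and of the 60 higher with porphyran, 28 (46.7%) had probes in rows 337 to 384, where 11.8% lie. On the extract array, 430 spots were at least 4-fold above each of the other 3 liver arrays, 400 of them in rows 1 to 144. On the porphyran array there were 98, of which 57 were in rows 337 to 384. The same rows held 57 of 122 such spots on the CD array and 48 of 80 on the HFD array, against 1 on the extract array. Copies of the same dim probe showed it too: in rows 1 to 48, 20 of 215 copies on the extract array were at least 2-fold above the probe's median, and 5 of 213 on the porphyran array. In rows 337 to 384 the counts were 6 of 198 and 24 of 199.

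**Figure D4:**
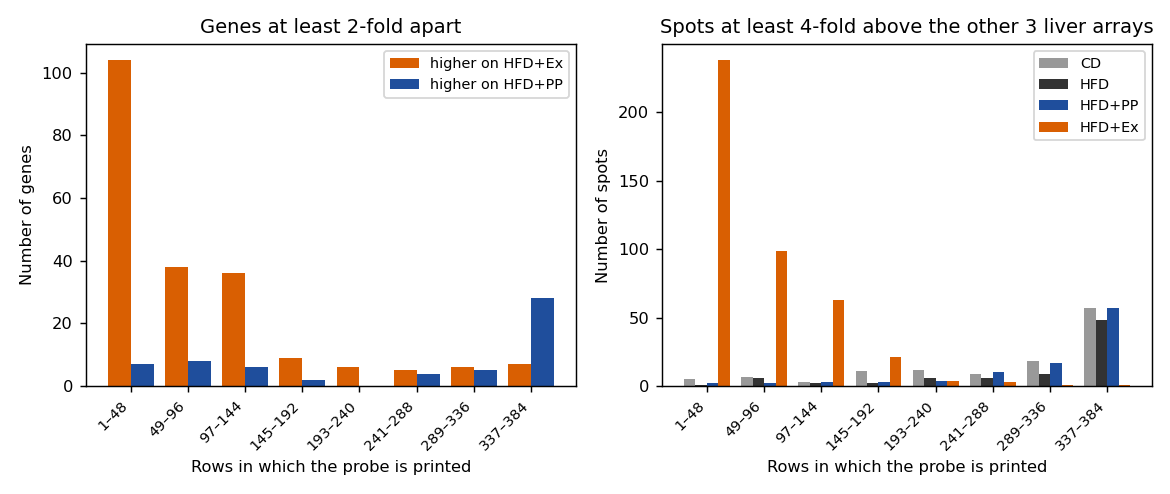
Left, number of genes at least 2-fold higher on the extract (orange) or porphyran (blue) liver array, by the rows in which their probes are printed, in 8 bands of 48 rows. Right, number of spots at least 4-fold above all other 3 liver arrays, for each liver array, in the same bands. The first band holds 104 genes higher with extract and 238 such spots on the extract array, and the last band 28 genes higher with porphyran.

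The genes with the largest values belonged to this group. Among the 15 genes with the largest positive differences measured on both arrays, 14 had a mean level below -2 and 13 had probes in rows 1 to 144. They include Rnf32 (2.93), Tmcc2 (2.92), Bglap (2.83), Epha3 (2.70), Xlr (2.62), Cabp2 (2.59), Lrrc17 (2.56), P3h2 (2.55) and Sycn (1.98). The exceptions to the rows were Chrna4, a nicotinic receptor subunit, and Prtn3, a neutrophil protease, with differences of 2.08 and 1.98. The 5 largest bounds higher with extract were Slc36a3 (at least 32.5-fold), Khdrbs2 (at least 32.4-fold), Zic2 (at least 30.1-fold), Cox17 (at least 25-fold) and Trem3 (at least 13.6-fold). None of the 5 was well above background on any other liver array, and all 5 had probes in rows 1 to 144. Toward porphyran, 4 of the 5 largest bounds had probes in rows 337 to 384. Ankrd22, the largest, was at least 8.01-fold higher with porphyran. Of the 211 genes 38 have several probes, and in 31 of these no other probe was well above background on the extract array. Over all measured genes this held for 1150 of 4842 with several probes. With normexp, Rnf32 was 1.23, Tmcc2 1.36, Chrna4 0.98 and Prtn3 0.51.

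Against the other comparisons in liver, the supplements were the closest pair. Among bright genes, 245 were at least 2-fold higher and 70 lower on HFD than on CD (2.8% of 11236), and 16 were higher and 76 lower with porphyran than on HFD (0.819%). With extract against HFD, 17 were higher and 62 lower (0.703%). The supplement arrays differed from each other in 22 such genes (0.196%). The spread of the differences, from their median absolute deviation, was 0.130 between the supplements, 0.175 and 0.172 between each and HFD, and 0.272 between HFD and CD.

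Across genes, the liver differences bore little relation to those in the other tissues of the same mice. Across genes measured on both arrays, which are not independent, the Pearson correlation of the liver difference with that in mesenteric fat was -0.05, over 13683 genes. It was 0.03 in brown fat, -0.00 in ileum and -0.01 in colon. In those tissues 3.01%, 2.64%, 3.3% and 3.15% of measured genes were at least 2-fold apart between the supplements, in the same order. Saa3 was the named bright gene at least 2-fold lower with extract in liver and in 2 other tissues, with -1.20 in brown fat, where the supplement arrays lay on different slides, and -1.92 in ileum, but it was 0.82 in mesenteric fat and -0.70 in colon. Cylc1, a dim sperm head gene, was higher with extract in liver (at least 5.35-fold), ileum and colon as bounds, and its probe lies in row 7, among the rows with extra bright spots on the extract liver array. In Fasn the difference was 0.15 in mesenteric fat, 0.48 in brown fat, -0.38 in ileum and -0.58 in colon.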

How the data were processed

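RNA of each tissue and diet was labelled with Cy3 and hybridised to a 1-colour Agilent mouse array. Per the file headers, the deposited intensity of each spot was read with Agilent Feature Extraction 11.5.1.1, background-subtracted and detrended within the array by the authors' scanner software. Of 62976 spots per array, 3671 controls were left out, and no spot was saturated. The share of spots well above background was 55.0% with extract and 60.4% with porphyran. All 4 liver arrays shared 1 slide and scan.

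Each log2 intensity was reduced by its array's 75th percentile. Probes were named through their accession and a RefSeq gene table (GRCm38.p6): 28026 of 55681 had a symbol. Spots of 1 probe were averaged without outlier flags, and a gene took its probe with the highest mean over the 20 arrays, which matters for the 5681 genes with several probes. Where a gene was dim on 1 array, that array took the higher of its own value and the lowest level among probes well above background there (-4.66 with extract, -5.15 with porphyran), and the fold is written as at least that. The procedure was tested on simulated data with the same noise at every level and no effect of print rows. That test does not cover the wider spread of dim genes or the rows with extra bright spots.

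The genes named are the 15 largest differences each way on both arrays, the 5 largest bounds each way, up to 5 members per list and direction past 2-fold, the genes past 2-fold the same way in liver and at least 2 other tissues, and a set of lipid, bile acid and inflammation genes whatever their values. Gene models and odorant receptors were counted only, and a few genes are not reported here. Further list members, and every bright gene past 2-fold, were named after their values were seen. The comparison and its 42 lists (938 genes) were chosen with earlier results of these data known. The alternatives were normexp (limma 3.58.1, offset 50), run on the median spot signal in place of the planned mean, quantile normalization, scaling to bright probes, the authors' deposited table (the scanner intensity times 1 factor per array, with scale linear, values not centred and the factor's target unknown), other filters and probe rules, and, added after seeing the data, the rows and the brightness limit. Python 3.11.15 and R 4.3.3 were used.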

Additional observations from a re-analysis of the deposited data

Results flagged for a closer look

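Several genes went one way in liver and the other way in another tissue, each by at least 2-fold and from 1 array per diet, so the difference between tissues was not tested. Saa1 was higher with extract in liver (1.29) and lower in ileum (-1.95). Saa2 was higher in liver (1.38) and lower in mesenteric fat (-4.07) and ileum (-1.88). The mesenteric fat value turns on the porphyran array of that tissue, where Saa2 had a level of 0.07. In mesenteric fat its levels were -3.58 on CD and -3.07 on HFD, and the extract array was lower still. Saa1, the near-identical copy, differed by -0.36 in mesenteric fat. Why the porphyran array stood apart was not tested. In colon, where both serum amyloid genes were bright, Saa1 and Saa2 differed by 0.06 and 0.04. Tnnt2, a troponin of heart muscle, was lower with extract in liver (-1.17) and higher in colon (1.70). Bglap, the bone protein osteocalcin, was 2.83 in liver and -1.55 in ileum, Cabp2, a calcium-binding protein, was 2.59 in liver and -2.20 in mesenteric fat, and Sycn, a protein of pancreatic granules, was 1.98 in liver and -1.87 in mesenteric fat. The probes of Bglap, Cabp2 and Sycn lie in rows 74, 130 and 10, within the rows where the extract liver array held extra bright spots.

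Probes without a gene symbol, which the comparison did not use, gave the same picture as the named genes. Of 13612 measured, 466 were at least 2-fold higher with extract and 102 with porphyran. Of the 466, 396 lie in rows 1 to 144. Among the 5416 with a mean level of at least -2, 8 were higher with extract and 3 with porphyran.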

How the results depend on the processing

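The counts of genes at least 2-fold higher with extract and with porphyran, 211 and 60, held within 1.5 times under quantile normalization, scaling to bright probes, the authors' values and the median over probes. They became 33 and 5 with normexp, 74 and 19 when both arrays had to be well above background, and 571 and 761 with no filter on dim probes, where the share higher with extract went from 77.9% to 42.9%. Without genes of other tissues they were 158 and 27. In rows 1 to 192 they were 187 and 23, in rows 193 to 384 they were 24 and 37, and at a mean level of at least -2 they were 15 and 7, so the excess toward extract was not present in the second range of rows. Of 58 named genes past 2-fold, 22 stayed past it with normexp and 36 did not, 5 of 57 did not by the median over probes, 1 did not with the authors' values, and none of them changed sign under any alternative run. The median of cholesterol synthesis lay between 0.36 and 0.52 and that of fatty acid synthesis between 0.17 and 0.35 over all alternatives. With normexp, Cnn1 was -1.12, Arntl -0.73 and Smpd3 0.76. Saa1 stayed between 1.27 and 1.29. Other SREBP2 targets ranged from -0.03 to 0.44, and erythroid genes from -0.62 to -0.11. The cause of these shifts was not tested. Dim signal near background limits what the arrays can show, since 1172 of 15319 genes have only a bound. No paired analysis was possible because each group is 1 array.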

Other observations

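Cyp26b1, whose enzyme clears retinoic acid, had lower values with extract than with porphyran in all 5 tissues, a pattern seen only after the values were known. The difference was -1.40 in liver, -0.36 in mesenteric fat, -0.76 in brown fat, where the 2 arrays lay on different slides, -0.44 in ileum and -0.84 in colon, so liver was the tissue past 2-fold. All tissues came from the same mice. The share of all measured genes that keep the same sign in all 5 tissues was not counted.

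Of 25 male-biased and growth hormone genes 0 reached 2-fold, and the median was -0.13. In this list 4 were at least 0.5 lower with extract, against 0.685% of bright genes, and 1 at least 0.5 higher, against 0.916%. Elovl3 was -0.71, the repressor Bcl6 -0.67, Susd4 -0.54 and Cyp2u1 -0.52, whereas Cish, an inhibitor of cytokine and growth hormone signalling, was 0.65. Hsd3b5, a male-specific steroid enzyme, differed by -0.13. Of 15 female-biased genes 0 reached 2-fold, with a median of 0.01. Of 28 immediate early and stress genes 10 (35.7%) had a difference above 0, against 46.5% of all measured genes, with a median of -0.11. Of the 21 with a mean level of at least -2, 2 were at least 0.5 higher with extract and 2 with porphyran. The early transcription factors Egr2, Fos and Atf3 differed by -0.87, -0.86 and -0.66, and Socs3 and Gadd45a by 0.79 and 0.64. The adipocyte genes Cfd and Slc2a4 differed by -0.61 and 0.98. The xenobiotic gene Cyp2b10, with levels of -0.68 on CD, 5.66 on HFD, 4.96 with porphyran and 5.02 with extract, differed by 0.06.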
